A study of Sus scrofa with 4 samples.

Results

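Keratin genes were taken as the protein-coding RefSeq gene models of the pig build Sscrofa11.1 whose symbol is KRT followed by digits and at most 1 letter. The rule found 35 of the 19550 protein-coding models on placed chromosomes, 15 on chromosome 5 and 20 on chromosome 12. Peaks were counted for a gene when they overlapped its model or the 5 kb on either side, and the rule used no measured value. ATAC-seq, which marks accessible DNA through cuts by the transposase Tn5, was run on porcine fetal fibroblasts (PFFs) from skin that had been serum-starved. The 2 control libraries (control 1 and control 4) were labelled wild type and carried pTK-642, and the 2 BRG1 libraries (BRG1 1 and BRG1 4) came from the same cell type over-expressing BRG1 from pTK-642-BRG1. The comparison asked how over-expression of BRG1, the ATPase of the BAF chromatin remodelling complex that SMARCA4 encodes, bears on the chromatin of cells later used as nuclear donors for cloned embryos. The labels do not tell if the libraries of one group were grown as separate cultures, so spread and p-values describe these 4 libraries and may be technical. Where 2 values are given for a group, that of library 1 stands first and that of library 4 second.

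Keratins are the intermediate filament proteins of epithelia. A filament is built from pairs of an acidic type I and a basic type II keratin, and each epithelium uses its own pairs. In mammals the type II genes and the type I gene KRT18 lie side by side in one cluster, and the other type I genes lie in another. Fibroblasts of the dermis build their filaments from vimentin instead, and keratin genes are commonly silent in them.

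Most keratin genes lay in chromatin without a called peak. A peak within the model and 5 kb was present in all 4 libraries at 9 of 35 keratin genes (25.7%), against 85.4% of all protein-coding genes. No library had one at 20 of 35 (57.1%), against 11.1% of all genes. The other 6 were called in 1 to 3 libraries. Keratin models are short, with a median of 7345 bp and a range of 3663 to 24009 bp against a median of 20650 bp for all models, so most of their windows are smaller than that of the median gene. A window of fixed size around the gene ends showed the same order: KRT10, KRT80 and KRT2 were the 3 of 35 (8.57%) with a peak within 1 kb of an end in all 4 libraries, against 68.2% of all genes, and 29 had none in any library, against 25.8% of all genes.

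**Figure D1:**
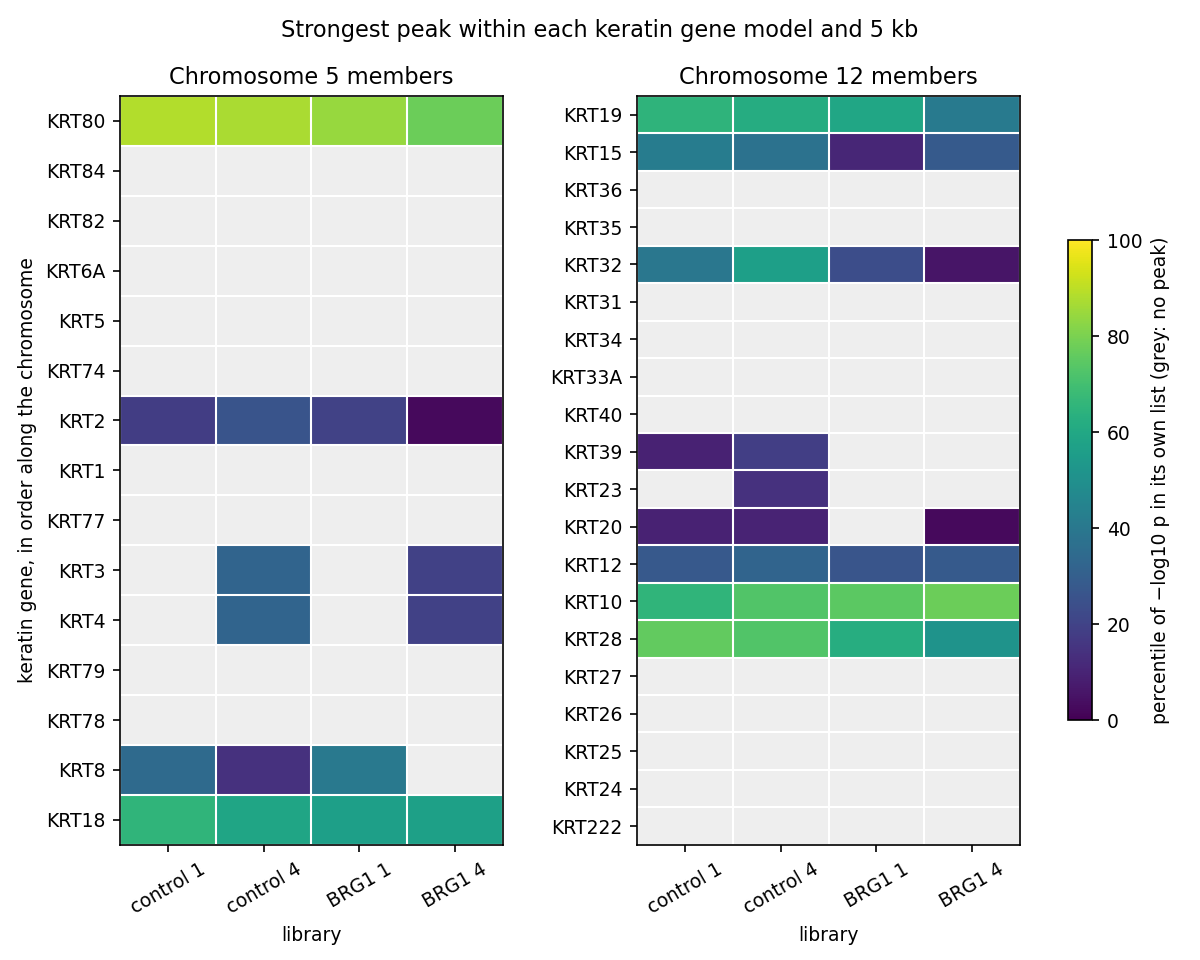
Percentile, within its own peak list, of the strongest peak in the model and 5 kb of each keratin gene (rows, in chromosome order) in each library (columns), with grey where no peak was called. KRT80, KRT18, KRT10, KRT28 and KRT19 carry the highest values, and 20 of the 35 rows are grey throughout.

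The peaks that keratins did have were mostly weak. Strength is given as the percentile of the authors' −log10 p within a library's own list, where 50 is the middle of that list, and as the number of tags piled up at the summit, which was recovered from the deposited fold and p. The keratin peaks had a median percentile of 39.7 and 32.2 in the controls and 26.4 and 28.3 in the BRG1 libraries, and 9 to 13 of the 15 to 21 keratin peaks per library lay below 50. Their median pileup was 22 and 22 tags in the controls and 21 and 15 in the BRG1 libraries, against 31, 31, 31 and 28 over the 4 lists (peaks with a −log10 p under 250). The local background of 35.3% to 53.3% of keratin peaks was the lowest of the library, within 1%, against 27.8% to 33.7% of all peaks. A peak missing from a list was not called at its depth, which is known only in relative terms: against control 1 it was 93.5% in control 4, and in the BRG1 libraries 81.2% and 92.6%.

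The cluster on chromosome 5 ran from KRT80 to KRT18 (17482454 to 18221432, 739 kb) and held 15 keratin genes and 17 further protein-coding models, all with LOC names only. Some of these may be keratins too, which the names cannot tell, and they were not counted as keratin genes. Peaks were not sparse there as a whole, at 51.4 and 44.7 per Mb in the controls and 39.2 and 35.2 in the BRG1 libraries, against 50.4 and 49.8 and 45.4 and 43.1 over chromosome 5. They were unevenly spread. Of 41 regions, where peaks of the 4 libraries that overlapped were merged, 12 lay in a keratin window and 29 outside. Of the 29, 9 overlapped a LOC model.

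A stretch of 240 kb (17692523 to 17932979) had no peak in any library and held 5 keratin genes. They were KRT84 and KRT82 of the hair shaft, KRT6A, which rises in wounded epidermis, KRT5, the type II keratin of the basal epidermal layer, and KRT74 of the inner root sheath. Of 119880 gaps between neighbouring regions on placed chromosomes, with a median of 8419 bp, 777 (0.648%) were at least as long. Past it, a stretch of 103 kb (17984191 to 18086878) held KRT2, KRT1, KRT77 and KRT3, and one of 59.5 kb (18087186 to 18146711) held KRT4, KRT79 and KRT78. Such lengths were less rare, with 2.46% and 5.80% of all gaps at least as long. KRT6A and several hair keratins have near-identical copies, and reads that map to more than 1 copy can be lost, so absence of a peak at these genes is uncertain. The part of repeats and assembly gaps in these stretches was not tested.

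The cluster on chromosome 12 ran from KRT19 to KRT222 (21115453 to 21778893, 663 kb) with 20 keratin genes and 24 other models, again with LOC names only. These too may include keratins. Here peaks were fewer than over the chromosome, at 33.2 and 34.7 per Mb in the controls and 33.2 and 31.7 in the BRG1 libraries, against 74.2 and 74.3 and 68.6 and 64.3 over chromosome 12. Of 27 regions, 10 lay in a keratin window and 17 outside, 1 of them on a LOC model. The longest stretch without a peak, 85.4 kb (21180074 to 21265426), held KRT31, KRT34 and KRT33A of the hair shaft, and one of 50.1 kb (21670373 to 21720464) held KRT27, KRT26 and KRT25 of the inner root sheath. Of all gaps on placed chromosomes, 3.30% and 7.58% were at least as long.

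**Figure D2:**
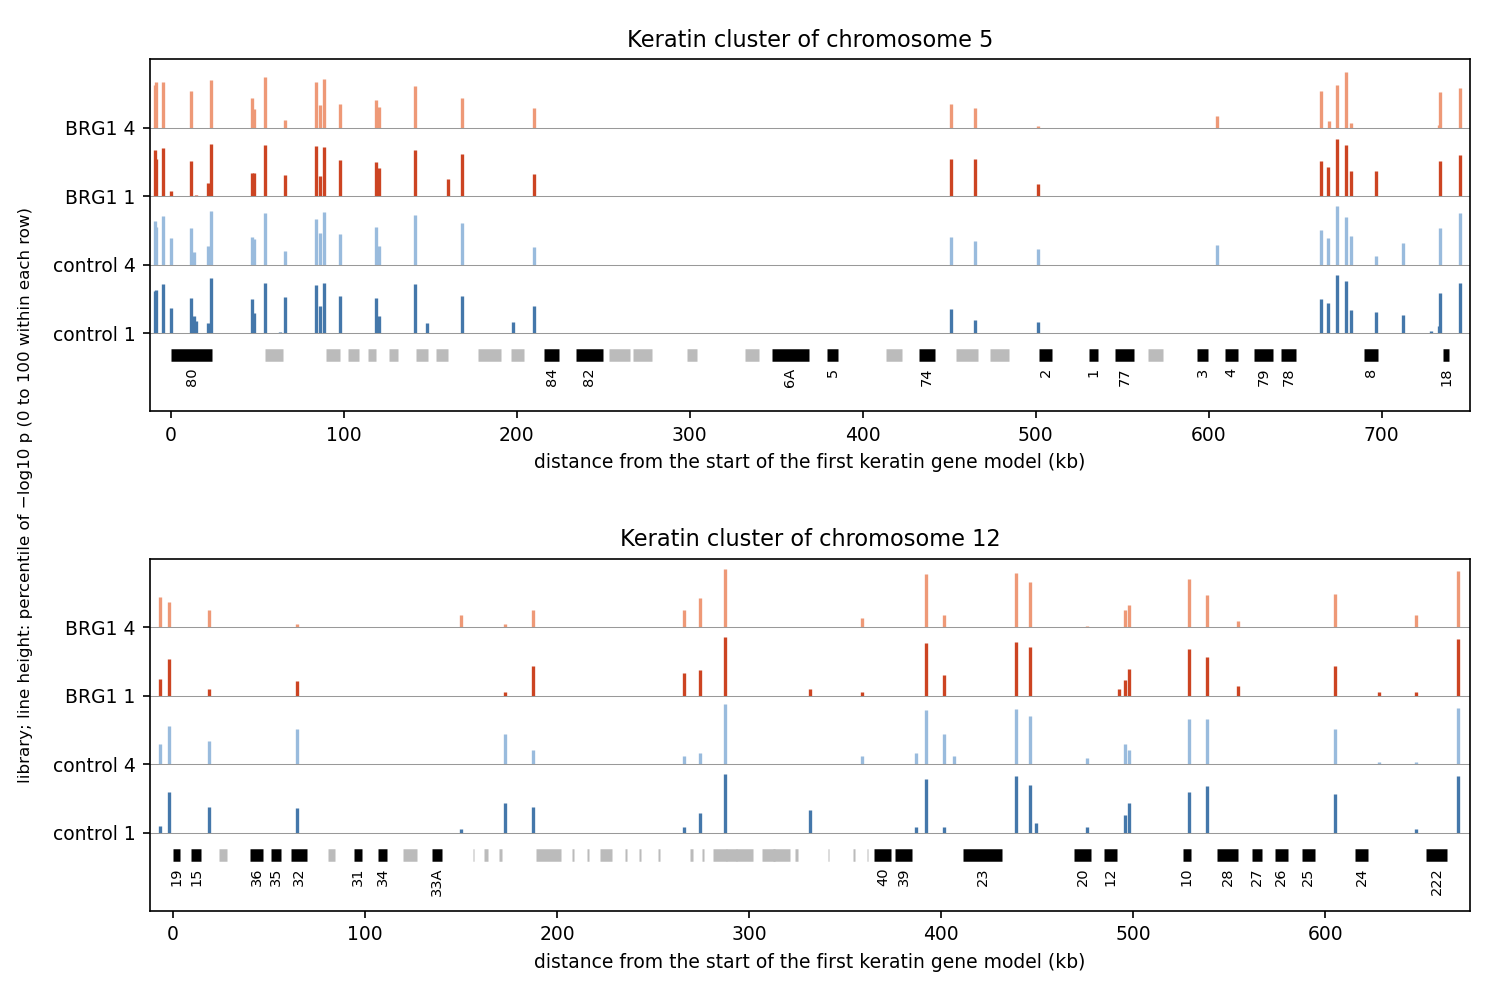
Peaks along both clusters, with distance from the first keratin model on the horizontal axis (kb). Line height gives, for each library, the percentile of the strongest peak of a region. Black bars are keratin models (KRT numbers below) and grey bars other protein-coding models, which may include keratins without a KRT symbol. Lines are dense left of KRT84 and around KRT8 in the upper map and absent over the 240 kb that hold KRT84, KRT82, KRT6A, KRT5 and KRT74.

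The strongest regions of both clusters lay outside the windows of the 35 keratin genes. On chromosome 12 the highest ranked (21402721 to 21403596) overlapped the ends of LOC102163700 and LOC100518930, at percentiles of 95.0 and 96.4 in the controls and 94.5 and 93.7 in the BRG1 libraries. A region 6924 bp beyond the higher-coordinate end of KRT23 (21553987 to 21554995) ranked at 90.9 and 89.6 against 86.8 and 88.0, and one 6773 bp beyond KRT39 (21507148 to 21508077) at 86.5 and 87.4 against 85.8 and 85.5. On chromosome 5 a region 15616 bp below KRT8 (18156045 to 18156807) ranked at 94.1, 94.3 and 92.8 in control 1, control 4 and BRG1 1 and at 68.7 in BRG1 4. Its neighbour at 10383 bp from KRT8 (18161281 to 18162040) went the other way, at 83.9, 76.5 and 81.9 in those libraries and 89.9 in BRG1 4. KRT7, a type II keratin of simple epithelia, is annotated as a non-coding RNA in this table and so is not among the 35. Its record (17553192 to 17570582) with 5 kb on both sides held 5 peaks in control 1 and 4 in each other library, the strongest at percentiles of 80.3 and 84.1 in the controls and 80.3 and 78.2 in the BRG1 libraries.

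Simple-epithelial keratins, which line single-layered epithelia and the early embryo, were all called in at least 1 library. KRT18 (chromosome 5, 18217686 to 18221432) had a region 1361 bp outside its lower-coordinate end (18215847 to 18216325), with 42 and 33 tags at the summit in the controls and 29 and 28 in the BRG1 libraries. Both controls lay above both BRG1 libraries in tags, but the groups overlapped once the pileup was divided by the lowest background of its library, as a measure of depth (21.9 and 18.4 in control, 18.7 and 15.8 in BRG1). A weaker region at 1984 bp (18215486 to 18215702) was called in control 1 on 15 tags and in BRG1 4 on 11. The partner of KRT18, KRT8 (18172423 to 18180277), had a region inside the model, 1292 bp from the higher-coordinate end (18178730 to 18178985), with 19 tags in control 1, 13 in control 4 and 22 in BRG1 1, and none was called in BRG1 4. A second KRT8 region of 213 bp, 702 bp from that end, was called in control 4 alone, on 8 tags, at percentile 0.354.

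KRT19 (chromosome 12, 21115453 to 21119115) had 1 region, 1769 bp outside its lower-coordinate end (21113171 to 21113684), with 43 and 41 tags in the controls and 37 and 23 in the BRG1 libraries. Divided by the lowest background of the library, the groups overlapped there (22.5 and 22.9 in control, 23.8 and 13.0 in BRG1). KRT20, of the intestinal lining, had a weak region inside its model (21591400 to 21591902) on 12 tags in control 1, 12 in control 4 and 9 in BRG1 4, and none in BRG1 1. Of these 4 genes, KRT18 and KRT19 were thus called in every library and KRT8 and KRT20 in 3 each, and at none was a gene-end peak shared by all 4.

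Of the keratins of the basal layer, where epidermal stem and progenitor cells sit, KRT5 had no peak in its window, and the nearest region lay 64583 bp from its model. KRT15 had 1 region 3660 bp outside its higher-coordinate end (21133907 to 21134331), on 22 and 20 tags in the controls and 12 and 15 in the BRG1 libraries. Both BRG1 libraries lay below both controls there. Other basal keratins, KRT14 among them, carry no such symbol in the table and were not analysed here.

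Of the 4 suprabasal keratins, made as keratinocytes leave the basal layer, 2 were called in every library and 2 in none. KRT10 (chromosome 12, 21641263 to 21645642) had a region inside the model, 495 bp from its higher-coordinate end (21644174 to 21645147), with 43 and 53 tags in the controls and 54 and 52 in the BRG1 libraries. It was the widest merged region inside a chromosome 12 keratin model, at 974 bp, and ranked at percentiles of 65.3 and 72.8 against 75.0 and 77.4. Its strongest peak was 973 bp wide in control 1 and 948 bp in BRG1 4, but 496 bp in control 4 and 491 bp in BRG1 1. Control 4 had a second peak in it, of 297 bp on 13 tags. In tags the groups overlapped. The usual partner of KRT10, KRT1, had no peak in its window, and the nearest region lay 28732 bp away. KRT2, a late suprabasal keratin, had a region 126 bp outside its lower-coordinate end (17983543 to 17984190) in all 4 libraries, on 14 and 16 tags in the controls and 14 and 9 in the BRG1 libraries, at percentiles of 18.1 and 26.0 and of 19.7 and 2.49, so this gene end was called on few tags. KRT77 had none.

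Among keratins of the cornea and internal stratified epithelia, KRT12, the corneal type I keratin, had a region 3715 bp outside its higher-coordinate end (21610983 to 21611454) on 17 and 18 tags in the controls and 17 and 15 in the BRG1 libraries, and a second, 777 bp from that end, in BRG1 1 alone on 12 tags. Its partner KRT3 shared its single region with the neighbouring gene KRT4 (18086879 to 18087185), 4760 and 4557 bp from them, called in control 4 on 18 tags and in BRG1 4 on 13. This was the 1 region of 24 that lay in the windows of 2 keratin genes, although 23 of the 35 windows overlap another.

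Hair keratins were the largest group among the genes with a KRT symbol, and most had no peak. Any hair keratins that carry only LOC names were not counted here. Of 10 hair-shaft genes, 8 had no peak in any library (KRT31, KRT33A, KRT34, KRT35, KRT36, KRT40, KRT82 and KRT84). KRT32 had a region inside its model (21179756 to 21180073) on 21 and 30 tags in the controls and 15 and 10 in the BRG1 libraries, with no overlap between the groups. KRT39 had a region 1687 bp outside its higher-coordinate end (21502062 to 21502384), called in control 1 on 12 tags and in control 4 on 14 and in neither BRG1 library.

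Of 5 inner root sheath genes, whose keratins mould the growing hair, KRT25, KRT26, KRT27 and KRT74 had no peak. KRT28 had a region 4782 bp outside its lower-coordinate end (21653750 to 21654475) on 55 and 47 tags in the controls and 33 and 23 in the BRG1 libraries. This region lies between KRT10 and KRT28, and a window of 1 kb would not count it for KRT28. Its summits lie outside the window of 5 kb in all 4 libraries. With peaks assigned by summit, KRT28 was called in 2 libraries and 8 keratin genes were called in all 4. A second, 327 bp outside the higher-coordinate end (21670147 to 21670372), was called in BRG1 1 on 13 tags and in BRG1 4 on 11 and in neither control.

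KRT80 (chromosome 5, 17482454 to 17506462), the longest model at 24009 bp and at the edge of its cluster, held 7 of the 24 keratin regions, more than any other keratin gene. Its strongest region lay inside the model, 297 bp from the higher-coordinate end (17505460 to 17506165), with 114 and 107 tags in the controls and 86 and 57 in the BRG1 libraries, at percentiles of 88.4 and 87.3 and of 84.7 and 77.4. A region 4088 bp outside the lower-coordinate end (17477613 to 17478366) had 96 and 84 tags against 82 and 67, and one in the middle of the model (17493886 to 17494886) had 43 and 43 against 38 and 37. Divided by the lowest background of the library, the groups overlapped at the outside region (50.1 and 46.9 in control, 52.8 and 37.8 in BRG1). They also overlapped at the middle region (22.5 and 24.0 in control, 24.5 and 20.9 in BRG1). The 3 strong regions were called in every library.

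The 4 weak regions of KRT80 varied between libraries. That at 242 bp inside the lower-coordinate end (17482696 to 17482968) had 26 tags in control 1, 27 in control 4 and 15 in BRG1 1, and that at 2513 bp from the higher end had 22, 27 and 21 in the same libraries. Of the 2 in the body, that from 17496021 to 17496273 was called in both controls, on 25 and 22 tags, and in neither BRG1 library, and that from 17496645 to 17496885 in control 1 on 22 and BRG1 1 on 14. BRG1 4 had none of the 4. Among the 5 remaining keratins, KRT23 had 1 region, in control 4 alone on 13 tags and 4543 bp away, and KRT24, KRT78, KRT79 and KRT222 had none.

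**Figure D3:**
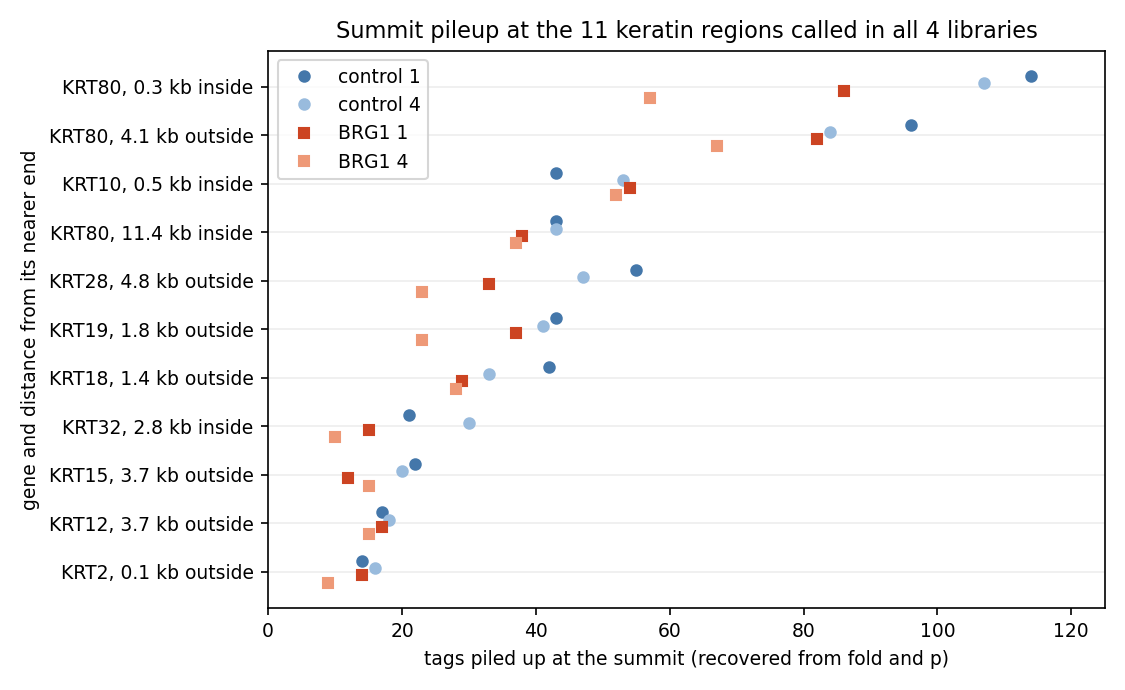
Tags piled up at the summit (horizontal axis, not scaled to depth) in each library at the 11 keratin regions called in all 4 libraries, labelled by gene and distance from its nearer end. The 2 highest regions, both of KRT80, span 57 to 114 and 67 to 96 tags, and KRT2 lies lowest at 9 to 16.

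Several genes sat close to the limit of 5 kb. Just inside were the regions of KRT28 at 4782 bp, KRT3 at 4760 bp, KRT4 at 4557 bp and KRT23 at 4543 bp. Just outside were those of KRT222 at 5024 and 5109 bp, KRT24 at 5714 bp, KRT84 at 5821 bp, KRT18 at 5855 bp and KRT12 at 5978 bp. The region at 5109 bp from KRT222 (21784002 to 21785401) overlaps an end of SMARCE1, a BAF subunit gene next to the cluster, and ranked at 91.1 and 91.1 in the controls and 92.2 and 91.2 in the BRG1 libraries. With 10 kb on both sides, 16 keratin genes had a peak in all 4 libraries and 12 had none, and with the models alone 3 and 30.

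Calls per library were fewer in the BRG1 libraries, whose lists were also shorter. Keratin windows held 19 and 21 peaks in the controls and 17 and 15 in the BRG1 libraries, or 20 ± 1.41 in control and 16 ± 1.41 in BRG1 libraries (SD, n = 2 each, two-sided exact permutation p = 0.33). The ratio of 0.800 compares with 0.877 for all peaks. With 2 libraries against 2 the test cannot give a p below 0.33, so no difference could pass 0.05. Lists of equal length gave a ratio of 0.939, and without KRT80 the counts were 12 and 15 against 11 and 12, a ratio of 0.852 with the value 12 in both groups. Base pairs under keratin peaks came to 7536 and 7621 in the controls and 6202 and 7070 in the BRG1 libraries, a ratio of 0.876 (exact permutation p = 0.33). Peaks of BRG1 4 were wider over its whole list, with a median of 541 bp against 403 and 396 bp in the controls and 404 bp in BRG1 1. The part of this width in the base pairs was not tested.

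The 2 clusters were also counted end to end. On chromosome 5 there were 38 and 33 peaks in the controls and 29 and 26 in the BRG1 libraries (ratio 0.775, exact permutation p = 0.33). The groups did not overlap there, and neither did they in peak number over all of chromosome 5 or over the whole lists (107475 and 105954 against 96367 and 90851). With lists of equal length the ratio was 0.871 (exact permutation p = 0.33). On chromosome 12 the counts were 22 and 23 against 22 and 21 (ratio 0.956, exact permutation p = 0.67), with the value 22 in both groups. With lists of equal length its direction turned, to a ratio of 1.23 (exact permutation p = 0.33). Whether the clusters differed in this was not tested.

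In number, few keratin regions separated the groups, though their shares were above those of all regions. Of 24, 11 (45.8%) were called in all 4 libraries, against 61.8% of all 121788 regions. Called in both BRG1 libraries and no control was 1 of 24, that beside KRT28 (4.17%, against 0.741% of all regions). Called in both controls and no BRG1 library were 2 of 24, beside KRT39 and in the body of KRT80 (8.33%, against 4.41%). These 3 rested on 11 to 25 tags, so 1 or 2 regions more or less would change the shares. At the level of genes, KRT39 was the 1 of 35 with a window peak in both controls alone, against 0.435% of all genes, and none was called in both BRG1 libraries alone, against 0.0512%. At gene ends KRT28 was the 1 of 35 called in both BRG1 libraries alone, against 0.199% of all genes, and none was called in both controls alone, against 0.532%.

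The 11 regions called everywhere were also compared after dividing each summit pileup by the lowest background of its library, which is proportional to depth. Both BRG1 libraries then lay below both controls at 4 of 11, against 24.4% of the 71860 regions that could be scaled. These were the regions of KRT15 (11.5 and 11.2 in control, 7.72 and 8.46 in BRG1), KRT32 (11.0 and 16.8, 9.65 and 5.64), KRT28 (28.7 and 26.2, 21.2 and 13.0) and the strongest of KRT80 (59.5 and 59.7, 55.3 and 32.1). At none did both BRG1 libraries lie above both controls, against 11.3% of those regions. This one-sided count did not hold for ranks in lists of equal length, on which both BRG1 libraries lay below both controls at 3 of the 11 (KRT32, KRT28 and the strongest of KRT80), against 18.3% of all 69935 regions so ranked, and above both at 3 (KRT10, KRT12 and the middle of KRT80), against 19.5%. KRT15 overlapped on that scale, at percentiles of 31.4 and 27.3 in control and 5.41 and 28.3 in BRG1 libraries. The median ratio of BRG1 to control in scaled pileup was 0.853 at the keratin regions and 0.921 over all. In scaled pileup BRG1 4 was the lowest library at 9 of the 11, all but those of KRT10 and KRT15, and at 61.0% of all regions so scaled. Its part in the lower BRG1 values was not tested.

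At gene ends, other intermediate filament genes, desmosome genes and keratin partners stood at 87.5%, 75% and 75%. The share of all genes was 68.2% at gene ends and 85.4% within 5 kb, so these lists, unlike the keratins, were not low at gene ends. A gene-end peak in all 4 libraries was present at 14 of 16 other intermediate filament genes, among them vimentin (VIM), nestin (NES) and the lamin genes LMNA, LMNB1 and LMNB2, and at all 16 within 5 kb. PRPH and BFSP2 were the 2 without a gene-end peak. Of 12 genes of desmosomes, the junctions to which keratin filaments attach, 9 had one, and DSG1, DSG3 and DSC1 had none in any library. Of 8 plakins and other keratin partners 6 had one, among them PLEC and DST, which link keratin to the cell membrane.

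Of 11 genes of the cornified envelope, the protein shell of dead keratinocytes, 0 carried a gene-end peak shared by all 4 libraries, and 6 had none in any. Within 5 kb, 6 of the 11 had a peak in all 4 libraries and 2 had none. PPL had one in 3 libraries (not BRG1 4), TGM1 in control 1 and BRG1 4, EVPL and CDSN in control 1 and KLK7 in BRG1 4. Of 22 other genes of epithelia, 13 (59.1%) had one in all 4 libraries, against 68.2% of all genes, and all 22 had a peak within 5 kb. At 6 of the 22 no library had a gene-end peak (TP63, CDH1, GRHL2, GRHL3, TFAP2A and LAMB3). OVOL2 (control 4 and BRG1 1), ITGB4 (BRG1 1) and CLDN4 (both BRG1 libraries) varied.

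Against the labelled cell type, all 4 libraries shared a gene-end peak at 12 of 13 fibroblast genes. FN1 was the exception, with one in BRG1 1 alone and a peak within 5 kb in all 4. Melanocyte and glial genes, endothelial genes and immune genes had 3 of 8 each, with none in any library at the other 5, and muscle genes 4 of 7, with MYOG called in BRG1 4 and CKM in all but control 4. Within 5 kb a peak was present in all 4 libraries at 3 of 8 melanocyte and glial genes, 7 of 8 endothelial genes and 8 of 8 immune genes. Muscle genes had 5 of 7 on this measure, and their member DES is also counted among the other intermediate filament genes. These counts are descriptions of short lists, set beside 68.2% of all genes at gene ends and 85.4% within 5 kb, and peaks do not measure expression.

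**Figure D4:**
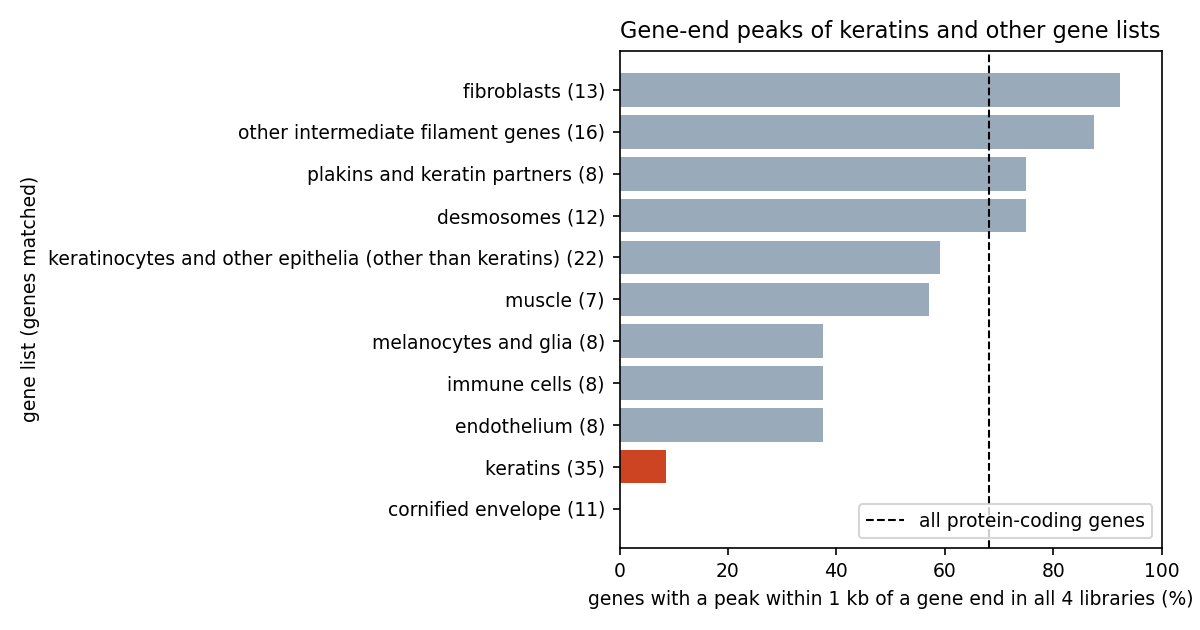
Share of genes with a peak within 1 kb of a gene end in all 4 libraries (horizontal axis, percent) for each gene list, with the number of genes matched; the dashed line marks all protein-coding genes at 68.2%. Keratins reach 8.57% and cornified envelope genes 0, below every other list drawn.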

How the data were processed

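ATAC-seq peaks of 4 libraries were used, 2 control and 2 BRG1. The authors deposited 1 narrowPeak list per library (90851 to 107475 peaks). FastQC, BWA, Bowtie, SAMtools and MACS2 and the build Sscrofa11.1 are named, per the submitters' processing notes. Versions, settings, the Tn5 shift and the treatment of duplicates, not given in the sources used here, can change which peaks are called. The deposited fold is a ratio of summit pileup to local background, with 1 added to each. The deposited −log10 p and −log10 q and the score, 10 times the −log10 q, are the authors' values within each list, used only there.

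Pileup and background were solved from fold and p (tolerance 0.0001, at least 99.9989% of peaks with a −log10 p under 250). Regions were peaks merged at an overlap of 1 bp. Gene models came from RefSeq (Sscrofa11.1), whose table used here has no strand or exons, so gene ends (1 kb) replaced gene starts, and exonic or intronic position is not given. Promoter sequences and motifs, planned for description, were not used here. Scripts ran in Python 3.11.15 with SciPy 1.17.1 and were tested on simulated data. Every keratin gene was named by rule. Members, lists and roles were chosen with earlier results of these data known, and the roles and the count without KRT80 after seeing the data. Single genes of the other lists called in all or no libraries were named after their values were seen. At most 0.202% of intervals were identical between 2 lists. Alternatives were the window, the peak threshold, list length, assignment by summit, overlap and leaving out each library.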

Additional observations from a re-analysis of the deposited data

How the results depend on the processing

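The ratios of keratin peak number and of base pairs stayed below 1 under every alternative run. The difference in median percentile (−8.64, BRG1 minus control) turned to 11.9 with no flank and to 5.1 with a −log10 q of at least 5, and the ratio on chromosome 12 turned from 0.956 to 1.23 with lists of equal length. Genes called in all 4 libraries moved from 9 to 3 with no flank, 4 with 1 kb and 16 with 10 kb, genes called in none from 20 to 12 with 10 kb, and gene ends from 3 to 6 with a window of 3 kb. BRG1-only regions (1) moved to 0 with no flank and 0 at the stricter threshold. Control-only regions (2) moved to 1 with no flank, 1 with 1 kb and 1 with lists of equal length. The cause was not tested beyond the smaller or larger window.

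Leaving out each library gave 0.750 to 0.850 for peak number, 0.818 to 0.933 for base pairs, −12.4 to −4.88 for the percentile, 0.933 to 0.978 on chromosome 12, 0.724 to 0.833 on chromosome 5, 9 to 10 genes in all libraries, 20 to 21 in none, 3 gene ends, 1 to 2 BRG1-only and 2 to 5 control-only regions, when calls had to be shared by fewer libraries (5 without BRG1 1, 4 without control 1, and 2 BRG1-only without BRG1 4). With replicate number as a block the values were 0.799, 0.874, −8.64, 0.956 and 0.775 in that order for the first 5 (exact sign-flip p = 0.5, 0.5, 0.5, 1 and 0.5). The deviations of libraries with the same number had a correlation of −0.0263 over all regions. With 2 libraries per group this cannot tell if the numbers pair them. Without KRT80, added after seeing the data, base pairs gave 0.874 and the percentile −9.62. Of 150 counts for single genes 31 moved. Absolute depth is unknown.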
